A study of Homo sapiens with 54 samples.

Results

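RPPH1, RMRP and TRU-TCA1-1 encode the RNA of RNase P, the RNA of RNase MRP and the selenocysteine tRNA. They are 3 of the 59679 genes that a RefSeq table of GRCh38.p14 places on chromosomes 1 to 22, X and Y. The 3 genes were chosen by name, with earlier results of these data known. A ChIP-seq region was counted at a gene when it lay within 200 bp of the gene's span, and regions within 5 kb were listed beside these. RPPH1 spans chr14:20343071-20343411 (341 bp), RMRP chr9:35657750-35658019 (270 bp) and TRU-TCA1-1 chr19:45478601-45478687 (87 bp).

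The cells were T47D, an established line of breast cancer cells that expresses the estrogen and progesterone receptors, given ethanol vehicle or the synthetic progestin R5020 for 1 h. Chromatin was precipitated with antibodies to POLR3A, POLR3C, POLR3G or POLR3GL (subunits of RNA polymerase III), the initiation factor Brf1, the polymerase III repressor Maf1, the progesterone receptor (PR), or histone H3 acetylated at lysine 27 (H3K27Ac), a mark of active promoters and enhancers. Each of the 16 combinations of antibody and treatment was carried out in 3 libraries and is represented by 1 deposited peak list, which leaves the values without a replicate error, and no difference between treatments could be tested. Of the libraries titled R5020, 4 carry a treatment tag that says ethanol: 2 of POLR3C, 1 of POLR3G and 1 of POLR3GL. How the libraries were combined into a list is not given in the sources used here. With 1 list for each group, the POLR3C, POLR3G and POLR3GL values with R5020 cannot be given without those 4 libraries. Sequencing depth is unknown, and the lists differ in length, from 370 to 173129 regions. As a check of the cell line, H3K27Ac lay within 1 kb of an end of 7 of 7 luminal marker genes in both treatments (ESR1, PGR, GATA3, FOXA1, KRT8, KRT18 and KRT19), against a share of 68.0% with vehicle and 69.3% with R5020 over 20037 protein-coding genes. Of 8 basal, fibroblast, leukocyte and endothelial marker genes, 4 had it with vehicle (KRT17, COL1A1, COL1A2, CD3E) and 3 with R5020 (KRT17, COL1A1, PECAM1).

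RNase P trims the leader off precursor tRNAs, and RNase MRP, its close relative, acts in the processing of ribosomal RNA. The selenocysteine tRNA inserts selenocysteine at recoded stop codons of selenoprotein messages. Most tRNA genes carry their promoter inside the gene, where TFIIIC binds and recruits a TFIIIB that contains Brf1. These 3 genes are known instead for promoters upstream of the gene, called type 3, in which a proximal sequence element bound by SNAPc and a TATA box direct a TFIIIB that contains Brf2, helped by a distal element with an octamer for the factor Oct-1. Brf2 was not analysed here. Maf1 is a general repressor of polymerase III that acts on the polymerase and on Brf1.

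RPPH1 and RMRP are read from the minus strand and stand head to head with the protein-coding genes PARP2 (a DNA repair enzyme), 224 bp away, and CCDC107, 273 bp away. The RefSeq promoter table (GRCh38.p14) held 0 of the 3 genes under their own names, but its windows for PARP2 and CCDC107 lie over the upstream sequence of RPPH1 and RMRP. The 250 bases before each of those genes are shown because they hold the upstream elements under the POLR3A regions. Both are written 5′ to 3′ on the minus strand, reading towards the polymerase III gene. The capitals mark matches, from left to right, to the octamer (ATGCAAAT), to the steroid receptor hexamer AGAACA in RPPH1 alone, to a stretch that is alike in both, and to TATAA. All matches were sought on both strands.

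RPPH1 upstream, chr14:20343385-20343634: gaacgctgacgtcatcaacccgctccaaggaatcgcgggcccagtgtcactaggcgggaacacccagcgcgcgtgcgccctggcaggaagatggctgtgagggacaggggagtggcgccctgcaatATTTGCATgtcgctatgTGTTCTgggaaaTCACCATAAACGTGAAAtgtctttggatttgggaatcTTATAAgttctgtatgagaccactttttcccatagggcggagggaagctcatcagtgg

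RMRP upstream, chr9:35658042-35658291: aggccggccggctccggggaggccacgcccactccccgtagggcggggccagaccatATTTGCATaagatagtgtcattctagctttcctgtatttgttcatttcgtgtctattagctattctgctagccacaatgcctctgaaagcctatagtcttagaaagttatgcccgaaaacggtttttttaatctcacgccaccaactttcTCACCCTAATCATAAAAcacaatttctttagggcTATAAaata

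The RPPH1 window ends 27 bases inside the gene, and the RMRP window ends 23 bp short of it. TATAA lay 26 to 30 bp before the RPPH1 span and 27 to 31 bp before the RMRP span. At RPPH1 it reads TTATAA, which matches on both strands with an overlap. The stretch alike in both was the best match among the 17-base stretches that lie 40 to 75 bp before each gene, and was the same at 13 of 17 positions. The next best that did not overlap it was the same at 10. Stretches elsewhere in the windows were not compared, so the place of the stretch alike in both was bound by the search. It reads TCACCATAAACGTGAAA at 52 to 68 bp before RPPH1 and TCACCCTAATCATAAAA at 49 to 65 bp before RMRP, where a proximal sequence element is known to lie in type 3 promoters. The pattern they share, TCACCNTAANCNTNAAA, was written from these sequences and is held by them by construction. Of 35116 promoter windows of the same 250 bases, only these 2 held it (0.0057%). The promoter table held 0 of the 11 other type 3 genes, so their promoters could not be searched. The octamer was closer to RPPH1, at 90 to 97 bp, than to RMRP, at 208 to 215 bp, and was held by 1.63% of all windows. TATAA was held by 18.9% and AGAACA by 12.4%. AGAACA lay 75 to 80 bp before RPPH1 and was not found in the RMRP window. Every marked stretch at RPPH1 was covered by the POLR3A regions of both treatments. At RMRP the TATAA and the shared stretch were covered in both treatments, and the octamer by the vehicle region alone. A match is a description of the letters and shows no binding.

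All 3 genes had a POLR3A region and an H3K27Ac region in both treatments, and no POLR3C or POLR3GL region in either. The other antibodies set them apart. PR was found with R5020 at RPPH1 and RMRP and not at TRU-TCA1-1, Maf1 with R5020 at RPPH1 alone, Brf1 in both treatments at TRU-TCA1-1 alone, and POLR3G in both treatments at RMRP and TRU-TCA1-1. In all, RPPH1 had a region in 6 of the 16 lists, RMRP in 7 and TRU-TCA1-1 in 8. The median over 422 numbered nuclear tRNA genes was 5 lists. RPPH1 and RMRP had the same presence in 13 of the 16 lists, RMRP and TRU-TCA1-1 in 13, and RPPH1 and TRU-TCA1-1 in 10.

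**Figure D1:**
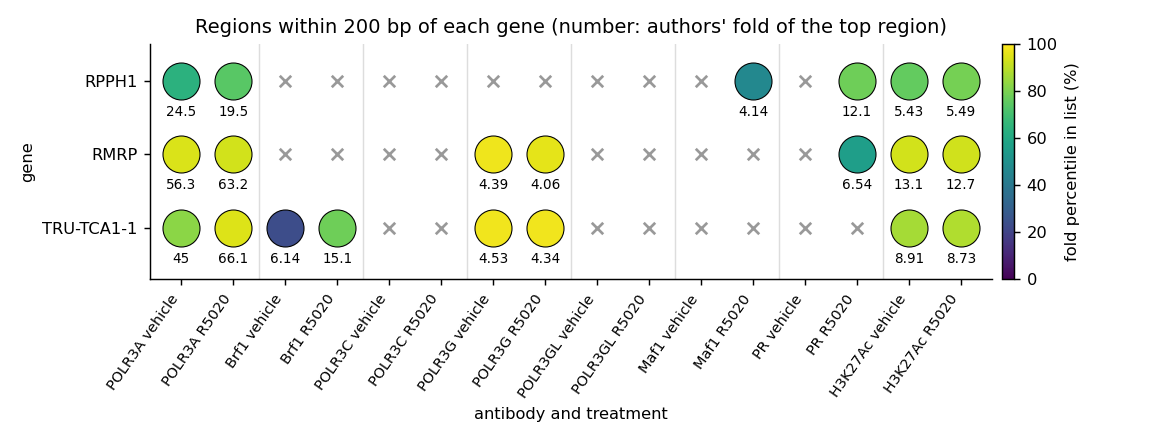
Presence of a region within 200 bp of RPPH1, RMRP and TRU-TCA1-1 (rows) in each of the 16 peak lists (columns). A circle is a region, with the authors' fold of the top region printed under it and its percentile among all regions of that list as the colour, and a cross is no region. POLR3A and H3K27Ac fill their columns at all 3 genes, Brf1 has circles at TRU-TCA1-1 alone, and PR has them at RPPH1 and RMRP with R5020 alone.

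POLR3A is the largest subunit of polymerase III and forms its catalytic core. The fold used here is the authors' own enrichment value for each region's summit, and it was ranked only within 1 list. RMRP had a POLR3A fold of 56.3 with vehicle (chr9:35657503-35658257) and 63.2 with R5020 (chr9:35657558-35658195). It ranked 39th of 688 regions with vehicle and 71st of 1047 with R5020, percentiles of 94.3 and 93.2. TRU-TCA1-1 had 45.0 with vehicle (chr19:45478346-45478983, percentile 82.6) and 66.1 with R5020 (chr19:45478430-45478907, percentile 94.7). RPPH1 had 24.5 with vehicle (chr14:20342938-20343545, percentile 63.9) and 19.5 with R5020 (chr14:20342996-20343516, percentile 74.2). RPPH1 was thus the lowest of the 3 in both lists. The R5020 list is longer and holds more low regions, and neither list has replicates. A difference in these percentiles is therefore not read as a change between treatments, which could not be tested.

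The share of genes with a POLR3A region was 2.98% with vehicle and 2.97% with R5020 over the 16187 genes with a span of at most 1 kb. It was 85.3% and 85.1% over the tRNA genes. Among 20 non-coding polymerase III genes (the 3 genes, 11 other type 3 genes and 6 type 2 or hybrid genes), all of which had POLR3A in both treatments, RMRP stood at place 6 by fold with vehicle and at place 10 with R5020. TRU-TCA1-1 stood at place 12 with vehicle and at place 8 with R5020. RPPH1 was at place 19 with vehicle, between RNU6-7 (26.8) and RN7SL2 (19.5), and at place 20 with R5020, next to RNU6-7 (19.8). The lists give no spread, so it cannot be said which neighbours in that order differ. The median fold of POLR3A regions at tRNA genes was 36.6 with vehicle and 44.9 with R5020, so RPPH1 lay below that median in both lists and RMRP and TRU-TCA1-1 above it.

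The POLR3A summits stayed within 22 bp between treatments. At RPPH1 the summit was 23 bp inside the higher-coordinate end of the gene with vehicle and 26 bp with R5020, close to where the RNA starts. At RMRP it was 60 and 82 bp inside that end. At TRU-TCA1-1 it lay just past the higher-coordinate end, by 6 and 8 bp. The regions were narrower with R5020 at all 3 genes: 608 and 521 bp at RPPH1, 755 and 638 bp at RMRP, 638 and 478 bp at TRU-TCA1-1. The POLR3A region was also narrower at 94.0% of 352 tRNA genes with a region in both treatments, so the 3 genes did as most tRNA genes did. The fold was higher with R5020 at 72.7% of those tRNA genes, and at 2 of the 3 genes. The highest POLR3A fold was 58 with vehicle and 71.4 with R5020, and several regions at tRNA genes shared that value in each list. Places near the top of a list are thus set by small differences in fold. The lists were not brought to 1 scale. A higher fold is therefore not read as a change. Over all POLR3A regions the median fold was 10.9 with vehicle and 4.86 with R5020.

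**Figure D2:**
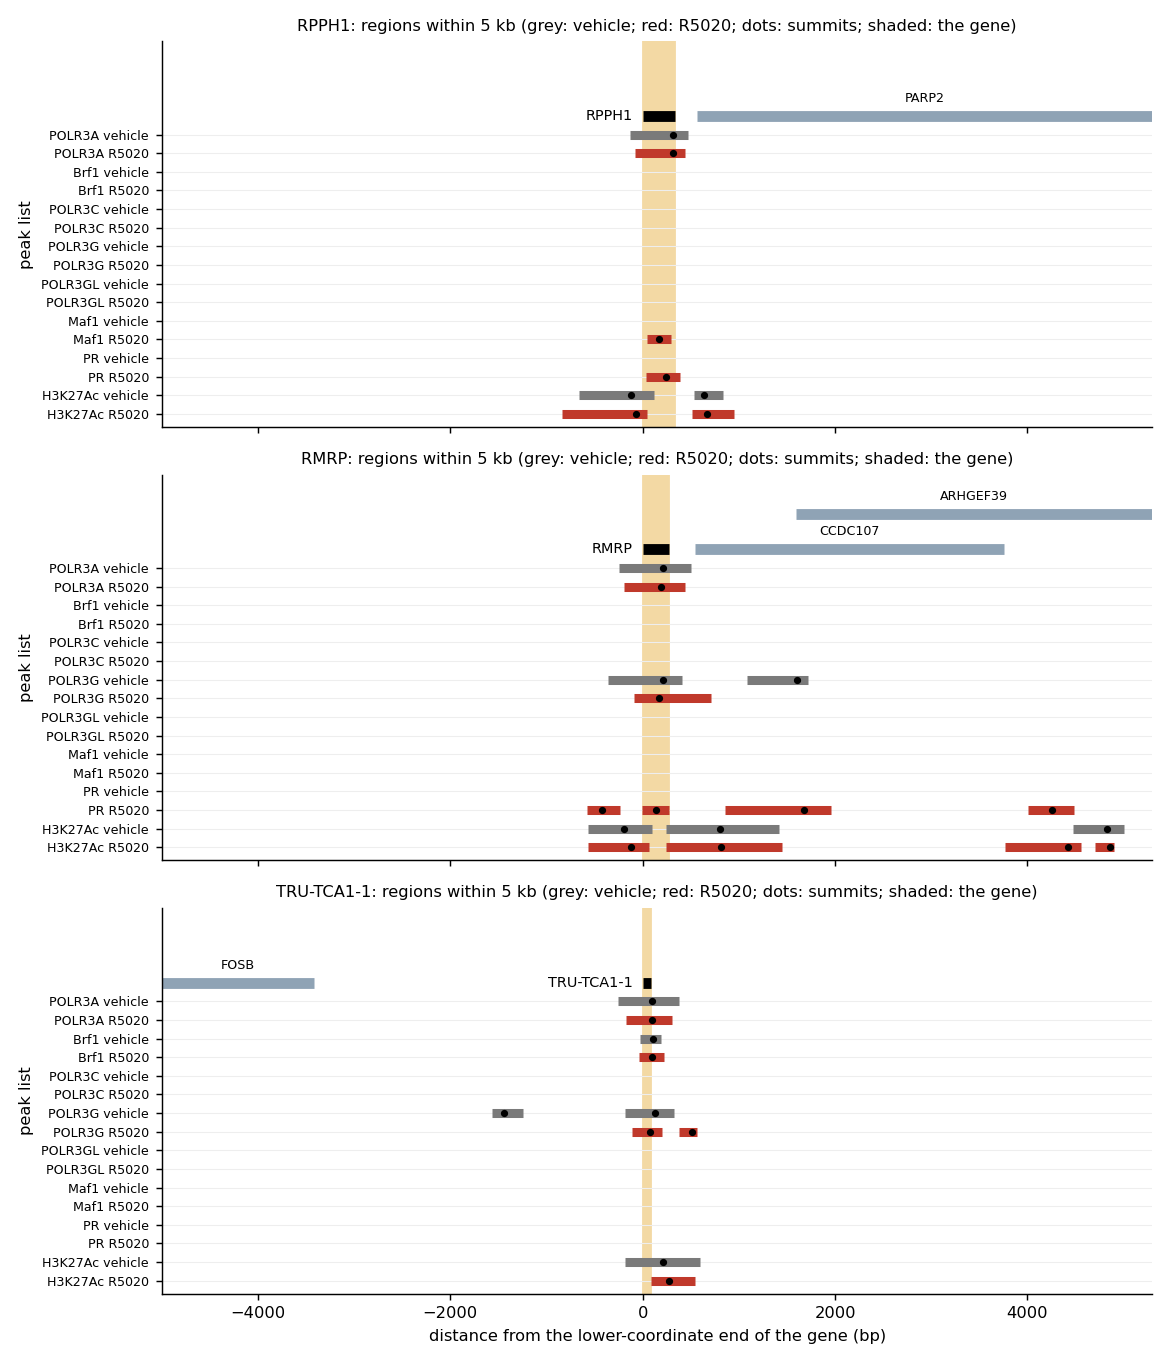
Regions within 5 kb of RPPH1, RMRP and TRU-TCA1-1, drawn by distance in bp from the lower-coordinate end of each gene (x axis) for the 16 peak lists (y axis). Bars are regions (grey with vehicle, red with R5020), dots are summits, the shaded column is the gene, and blue-grey bars are neighbouring genes. At RPPH1 and RMRP the POLR3A summit falls in a gap between H3K27Ac regions, and RMRP has 4 PR regions with R5020.

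Brf1, the TFIIIB subunit of genes with internal promoters, was absent from RPPH1 and RMRP in both lists. The nearest Brf1 region to RPPH1 was 265760 bp away with vehicle and 265796 bp with R5020. For RMRP those distances were 5579436 and 2580790 bp. Brf1 was found at 2.28% of the short genes with vehicle and 2.56% with R5020, and at 71.1% and 73.2% of the tRNA genes. Of the 11 other type 3 genes, 0 had a Brf1 region with vehicle and 1, RNU6-1, had one with R5020 (fold 9.23). All 6 type 2 or hybrid genes, which include the 7SL genes RN7SL1 and RN7SL2 and the vault RNA genes, had Brf1 in both treatments.

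TRU-TCA1-1 had a Brf1 region in both lists. With vehicle it spanned chr19:45478569-45478796 with a fold of 6.14, and with R5020 chr19:45478564-45478818 with a fold of 15.1. The Brf1 summit was 11 bp from the POLR3A summit with vehicle and 5 bp from it with R5020. The fold was low for a tRNA gene: it ranked 219th of 242 Brf1 regions at tRNA genes with vehicle and 205th of 251 with R5020, where the medians were 27.2 and 54.3. The regions of 228 and 255 bp were also narrow, against medians of 604 and 599 bp at tRNA genes. Only 16 of the 242 regions were narrower with vehicle, and 39 of the 251 with R5020.

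Set against its POLR3A signal, the Brf1 signal at TRU-TCA1-1 stood lowest. With vehicle, 138 other tRNA genes had a POLR3A fold at least as high, and all 138 had Brf1, with folds from 14.4 to 51.5 and a median of 39.2. With R5020, 62 other tRNA genes did, all with Brf1, with folds from 56.9 to 91.0 and a median of 83.7. In neither list did 1 of these genes have a Brf1 fold below that of TRU-TCA1-1. This set of genes was chosen after the values were seen, clustered genes can share a region, and no test was made.

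**Figure D3:**
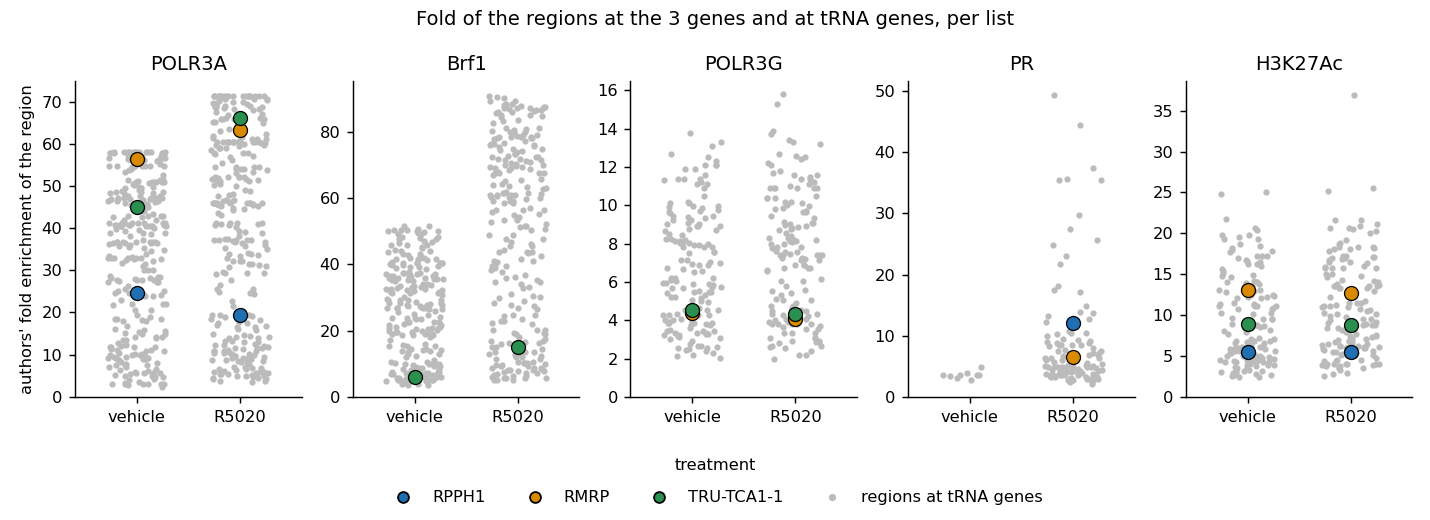
Authors' fold enrichment (y axis, linear, separate scale per panel) of the regions at RPPH1, RMRP and TRU-TCA1-1 (large points) and of all regions at tRNA genes (small grey points), by treatment (x axis), for 5 antibodies. TRU-TCA1-1 is in the upper range for POLR3A and near the bottom for Brf1, where RPPH1 and RMRP have no point.

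POLR3G and POLR3GL are alternative subunits of the polymerase, and POLR3C belongs to the same trimer. RMRP had a POLR3G fold of 4.39 with vehicle (chr9:35657394-35658161) and 4.06 with R5020 (chr9:35657657-35658464). TRU-TCA1-1 had 4.53 with vehicle (chr19:45478413-45478926) and 4.34 with R5020 (chr19:45478491-45478798). These folds stood high among all POLR3G regions, at percentiles of 97.3 and 95.9 for RMRP and 97.7 in both lists for TRU-TCA1-1. They were below the median of POLR3G regions at tRNA genes, which was 6.23 with vehicle and 7.43 with R5020. The POLR3G summit was 7 and 12 bp from the POLR3A summit at RMRP, and 36 and 20 bp from it at TRU-TCA1-1. All 4 folds were under 5. Weaker POLR3G regions lay 811 bp from RMRP with vehicle (fold 2.80) and, near TRU-TCA1-1, at 1248 bp with vehicle (fold 3.06) and at 296 bp with R5020 (fold 2.94).

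RPPH1 had no POLR3G region within 5 kb, and the nearest was 266623 bp away with vehicle and 162897 bp with R5020. All 11 other type 3 genes had POLR3G in both treatments. POLR3G was found at 8.06% of the short genes with vehicle and 6.75% with R5020, and at 51.2% and 48.1% of the tRNA genes. POLR3C, absent from the 3 genes, was found at 1.02% and 1.16% of the short genes, at 23.5% and 27.7% of the tRNA genes, and at 2 of the 11 other type 3 genes in each list. POLR3GL was found at 0.0432% and 0.0803% of the short genes and at 0% and 2.37% of the tRNA genes, so its absence from the 3 genes sets them apart from few others.

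PR is a ligand-activated transcription factor. With vehicle it was at 0 of the 3 genes, and the nearest PR region was 4023545 bp from RPPH1, 139371 bp from RMRP and 27194 bp from TRU-TCA1-1. With R5020 RPPH1 had a PR region at chr14:20343103-20343460 with a fold of 12.1, a percentile of 77.8 among 173129 regions. Its summit was 97 bp inside the higher-coordinate end of the gene and 71 bp from the POLR3A summit. It covered 76 of the 250 bases printed above, with TATAA among them, and stopped short of the shared stretch and of the AGAACA match. RMRP had a PR region at chr9:35657747-35658025 with a fold of 6.54 (percentile 55.5), which covered the whole gene. Its summit was 46 bp from the POLR3A summit.

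PR was found at 1.30% of the short genes with vehicle and 10.1% with R5020, and at 2.13% and 25.4% of the tRNA genes. PR with R5020 and not with vehicle was found at 8.87% of the short genes and at 23.2% of the tRNA genes, and at 2 of the 3 genes. In the narrower set of 158 tRNA genes with both POLR3A and H3K27Ac with R5020, 57.6% had PR with R5020. Within 1 kb of an end, 60.9% of protein-coding genes had PR with R5020. Of the 11 other type 3 genes, 8 had PR with R5020 and 1, RNU6-1, had it with vehicle. Had they been ranked among the 109 PR regions at tRNA genes with R5020, whose median fold was 5.58, the RPPH1 region would stand at place 22 and the RMRP region at place 49. Around RMRP, R5020 PR regions numbered 4 within 5 kb. The others were at chr9:35657174-35657519 (fold 4.95), 231 bp from the gene and so just outside the limit of 200 bp, at chr9:35658604-35659706 (fold 9.90) over CCDC107 and ARHGEF39, and at chr9:35661757-35662230 (fold 16.6) over ARHGEF39. The one with the highest fold was thus 3738 bp away and not at RMRP. A share of 4.93% of the short genes had at least 4 R5020 PR regions within 5 kb, and 44.4% had at least 1.

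TRU-TCA1-1 had no PR region within 5 kb in either list, and the nearest with R5020 was 8772 bp away. FOSB, an early-response gene, ends 3422 bp from it. Of 158 tRNA genes with both POLR3A and H3K27Ac with R5020, 57.6% had PR, 57.0% had Maf1 and 24.1% had neither, as TRU-TCA1-1 did.

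Maf1 was found at RPPH1 with R5020, at chr14:20343119-20343364 with a fold of 4.14 and a -log10 q of 5.58. It stood at the percentile 46.6 among 22683 Maf1 regions, below the middle of its list. The region lay wholly within the gene and within the PR region, and its summit was 146 bp from the POLR3A summit and further into the gene. The vehicle list had no Maf1 region at the 3 genes, and the nearest was 2977725 bp from RPPH1, 2436118 bp from RMRP and 290462 bp from TRU-TCA1-1. With R5020 the nearest was 74177 bp from RMRP and 6714 bp from TRU-TCA1-1. Maf1 was found at 1.20% of the short genes with vehicle and 3.42% with R5020, and at 3.32% and 22.3% of the tRNA genes. Maf1 with R5020 and not with vehicle was found at 2.28% of the short genes and 19.2% of the tRNA genes. Of the 158 tRNA genes with both POLR3A and H3K27Ac with R5020, 57.0% had Maf1 with R5020. Of the 11 other type 3 genes, 4 had it with R5020 (RN7SK, RNU6-1, RNU6-2 and RNU6-8) and 1, RN7SK, with vehicle.

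The PR and Maf1 regions at these genes were not among the top regions of the long R5020 lists. With equal numbers of top regions by -log10 q for vehicle and R5020 (6663 for PR, 3049 for Maf1), 0 of the 3 genes had PR or Maf1 with R5020. That count follows from the places of these regions in their lists. Why the R5020 lists are longer was not tested.

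H3K27Ac was found at all 3 genes in both treatments, against 9.71% and 10.3% of the short genes and 41.0% and 37.7% of the tRNA genes. At RPPH1 and RMRP it lay on both sides of the POLR3A summit and not over it. The RPPH1 regions with vehicle were chr14:20342410-20343185 (fold 5.43) and chr14:20343601-20343911 (fold 4.30), with a gap of 415 bp between them that held the start of RPPH1 and its upstream elements. With R5020 they were chr14:20342236-20343116 (fold 4.24) and chr14:20343582-20344018 (fold 5.49), with a gap of 465 bp. The second region of each list is counted at RPPH1 by its distance of 190 and 171 bp, just inside the limit, and runs into PARP2. So the higher fold was on the gene's lower side with vehicle and on the PARP2 side with R5020. The lists give no error for either.

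At RMRP the gap was smaller and lay inside the gene, 151 bp with vehicle and 179 bp with R5020. The region on the CCDC107 side had the higher fold in both lists, 13.1 with vehicle (chr9:35657995-35659168) and 12.7 with R5020 (chr9:35657996-35659195). The other had 6.34 (chr9:35657178-35657843) and 9.73 (chr9:35657183-35657816). A layout with H3K27Ac on both sides of the POLR3A summit and not over it was also sought within 1 kb of other genes. Of tRNA genes with POLR3A, with or without H3K27Ac nearby, 11.9% of 360 had it with vehicle and 14.5% of 359 with R5020. Of the 11 other type 3 genes, 4 had it with vehicle and 6 with R5020.

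TRU-TCA1-1 had a single H3K27Ac region, and it covered the POLR3A summit. With vehicle it spanned chr19:45478416-45479193 with a fold of 8.91 and lay over the whole gene. With R5020 it spanned chr19:45478689-45479143 with a fold of 8.73 and began 2 bp past the gene. The POLR3A summit of that treatment, 8 bp past the gene, lay close to the region's edge and 175 bp from its summit. Of tRNA genes with POLR3A, with or without H3K27Ac nearby, 26.7% of 360 had a region over the POLR3A summit with vehicle and 21.2% of 359 with R5020. Of the 11 other type 3 genes, 4 had one with vehicle and 2 with R5020. In both lists the top H3K27Ac fold was highest at RMRP and lowest at RPPH1.

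**Figure D4:**
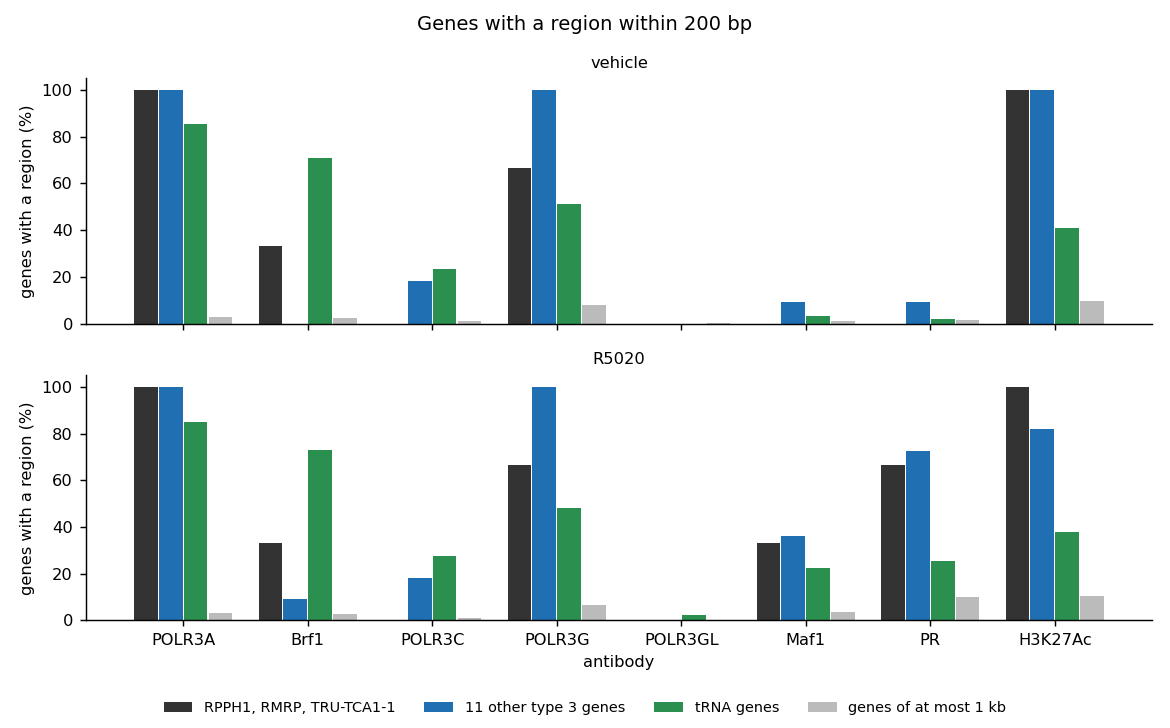
Share of genes (y axis, %) with a region within 200 bp for each antibody (x axis), with vehicle (top) and R5020 (bottom), for RPPH1, RMRP and TRU-TCA1-1 together, 11 other type 3 genes, 422 tRNA genes and 16187 genes of at most 1 kb. TRU-TCA1-1 is also among the last 2 sets, and RPPH1 and RMRP are among the last. Of the 11 other type 3 genes, 11 have H3K27Ac with vehicle and 9 with R5020, and Brf1 is at 0 and 1 of them.

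The genes whose presence pattern was most like that of each gene were sought among 440 other polymerase III genes. The measure was the number of the 16 lists with the same presence, with ties settled by the mean difference in fold percentile. RMRP matched 3 genes in all 16 lists: RNU6-9 and RNU6-7, which encode the spliceosomal U6 RNA, and RNY1, which encodes a Y RNA. Their mean differences from RMRP were 7.00 points for RNU6-9, 15.3 for RNY1 and 24.6 for RNU6-7. TRU-TCA1-1 matched 13 genes in all 16 lists, of which the closest were TRQ-CTG1-2, a glutamine tRNA gene (10.3 points), TRR-CCT1-1, an arginine tRNA gene (11.1 points), and TRW-CCA3-3, a tryptophan tRNA gene (11.7 points). Most of the genes compared were tRNA genes. Of the 11 other type 3 genes, 0 had Brf1 with vehicle, so 0 could match TRU-TCA1-1 in all 16 lists. No gene matched RPPH1 in all lists. TRN-GTT3-1, an asparagine tRNA gene, and RNU6-8 matched it in 14 lists, and the third by the rule, RNU6-7, in 13.

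TRU-TCA2-1, the other selenocysteine tRNA entry of the table, on chromosome 22, had no region within 200 bp in any list. The only region within 5 kb was an R5020 PR region 1703 bp away. The RPPH1 pseudogenes RPPH1-2P and RPPH1-3P, looked up after the values were seen, had no region within 200 bp in any list either.

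The protein partners of these RNAs are made by polymerase II genes and were read within 1 kb of either gene end. Of 11 genes for protein subunits of RNase P and RNase MRP, 11 had H3K27Ac in both treatments, against 68.0% and 69.3% of protein-coding genes. POLR3A was at 0.509% and 0.539% of protein-coding genes with vehicle and R5020, Brf1 at 0.359% and 1.03%, and neither was at these 11 genes. PR was at 1 of them with vehicle, RPP38 (fold 2.60), and at 9 with R5020, all but POP4 and RPP30, against 13.3% and 60.9% of protein-coding genes. The R5020 folds of PR ran from 3.60 at RPP40 to 25.1 at RPP25L. Maf1 was at 0 with vehicle and at 6 with R5020 (POP1, POP5, RPP21, RPP25L, RPP38 and RPP40), against 9.36% and 35.7% of protein-coding genes. POLR3G was at 8 and 5 of them, against 47.8% and 41.5%.

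Of 8 genes of the selenocysteine pathway, 8 had H3K27Ac in both treatments, against 68.0% and 69.3% of protein-coding genes. POLR3A and Brf1 were at 0 of the 8. PR was at 3 with vehicle (SECISBP2, SEPHS1 and TRNAU1AP) and at 8 with R5020, against 13.3% and 60.9% of protein-coding genes. The highest R5020 PR fold, 39.8, was at SEPSECS, the enzyme that makes selenocysteine on the tRNA, and the lowest, 2.65, at EEFSEC, the factor that carries it to the ribosome. Maf1 was at 4 with vehicle and at 7 with R5020, all but EEFSEC, against 9.36% and 35.7%. POLR3G was at 7 with vehicle and at 8 with R5020, against 47.8% and 41.5%. Of 10 genes for factors that act at type 3 promoters, PR was at 1 with vehicle, ZNF143, and at 7 with R5020, among them BRF2 and SNAPC1, against 13.3% and 60.9% of protein-coding genes. The PR share with R5020 was thus near that of all protein-coding genes. Maf1 was at 4 and 7 of the 10 genes, against 9.36% and 35.7%, and POLR3G at 10 and 9, against 47.8% and 41.5%.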

How the data were processed

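Per the submitters' processing notes, reads were handled with cutadapt, Bowtie2 and MACS2 on hg38; versions, settings and controls are not given in the sources used here. The authors deposited 16 narrowPeak lists without headers, 1 for 3 libraries each; how replicates were combined is not given. For each peak they deposited a fold enrichment (a ratio), the -log10 of the q-value, at least 1.30, and a summit offset in bp. Input libraries are not analysed here separately. Samples were grouped by title.

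Only the autosomes (1 to 22) and X and Y were used. Gene spans came from a RefSeq table of GRCh38.p14, the same primary assembly; it gives no strand. A region was at a gene within 200 bp. The tRNA set holds 422 numbered genes that start beyond 100 kb; short genes span at most 1000 bp. Percentiles count ties at their midpoint. Overlaps were tested on simulated data. Alternatives were thresholds of 5 on -log10 q or on fold, distances of 0 and 1000 bp, equal list lengths, and ranks by -log10 q or among tRNA genes. Python 3.11.15 and matplotlib 3.10.9 were used.

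The 3 genes and all lists were chosen with earlier results of these data known. Named genes are the 3 genes, those within 5 kb, other selenocysteine tRNA entries, members of fixed lists (type 3, type 2, RNase P and MRP proteins, selenocysteine pathway, type 3 factors, cell markers) and the 3 genes of most similar presence.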

Additional observations from a re-analysis of the deposited data

How the results depend on the processing

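No replicate could be left out, because 1 list stands for the 3 libraries of a group. No paired analysis was possible because the lists carry no replicate numbers. Of 48 pairs of gene and list, 21 had a region; 21 did with a -log10 q of at least 5 or a distance of 1000 bp, 20 with 0 bp (TRU-TCA1-1 lost R5020 H3K27Ac), 16 with a fold of at least 5 and 18 with equal numbers of top regions. With a fold of at least 5, POLR3G was at 0 of the 3 genes in both treatments and Maf1 with R5020 at 0. With equal numbers of top regions, PR and Maf1 with R5020 were at 0. All other counts per list and per gene stayed within 1.5 times their value. POLR3A percentiles among tRNA-gene regions alone were 32.2 with vehicle and 29.4 with R5020 for RPPH1, 89.6 and 80.1 for RMRP, and 66.0 and 84.4 for TRU-TCA1-1. Ranked by -log10 q they were 57.3 and 70.8 for RPPH1, 92.2 and 88.3 for RMRP, and 82.2 and 90.9 for TRU-TCA1-1. The ranked population or value differs by construction in these. Depth is unknown, so an absent region can be a region too weak to be listed.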
